A study of Mus musculus with 4 samples.

Results

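The transcriptome of mouse liver tumors grown under carrier treatment was described across all genes. It came from 2 of the 4 libraries of the study, chosen by their treatment label; the other libraries, from tumors under sorafenib, were not analysed here. Every tumor of the study had the genotype Myc/NrasG12V: transposons encoding the transcription factor MYC and a constitutively active form of the small GTPase NRAS had been injected hydrodynamically into hepatocytes of C57BL/6 wildtype mice. Carrier, the treatment without drug, was given every second day for 3 weeks. The whole tumor was sampled, so stroma, vessels, immune cells and any enclosed liver contributed RNA beside the tumor cells. With 1 condition there is no contrast and no test: values are given for carrier replicate 1 and then replicate 2, and differences between them compare libraries, not treatments. Nothing in the labels says that the replicates came from separate mice, so their spread may be technical. The age and sex of the mice, the interval between injection and treatment, and the promoters that drove the transgenes are not stated.

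The adult hepatocyte is a secretory cell that exports most of the proteins of blood plasma, among them albumin, apolipoproteins, clotting factors and protease inhibitors, while its enzymes handle sugars, amino acids, lipids and foreign compounds. In the fetus the same lineage makes alpha-fetoprotein, the imprinted noncoding RNA H19 and insulin-like growth factor 2, which decline after birth in mice and can be expressed again in regenerating liver and in liver tumors. Glypican-3, a cell-surface heparan sulfate proteoglycan, is used as a marker of human hepatocellular carcinoma.

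The libraries held 5932939 and 5300806 counted reads. A single read was worth 0.169 and 0.189 CPM (reads scaled to a library total of 1000000), and a listed 0 allowed a level of up to 0.506 and 0.566 CPM, the value of 3 reads. Of 39179 listed genes, 17487 and 17316 had at least 1 read, and 12512 reached 1 CPM in both libraries. Intervals below are 95% intervals for counting error only. CPM depends on transcript length as well as on the number of molecules, so genes are compared with each other on a per-length scale (TPM, reads divided by annotated exon length and scaled to the same total), and each gene's own values are given in CPM.

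The 6 genes named as tumor markers were all well above the limit of detection, but at very different levels. H19 (chr7:142575529-142578143, GRCm38, minus strand) had 19533 and 19388 CPM and was the 4th most abundant gene by reads. Igf2 (chr7:142650766-142666816, minus strand), which encodes a fetal growth factor, had 12726 and 10347 CPM and ranked 6th. Afp (chr5:90490737-90508907, plus strand), the fetal counterpart of albumin, had 5276 and 2790 CPM and ranked 26th. H19 was nearly equal in both libraries, Igf2 was moderately higher in replicate 1, and Afp was 1.89-fold higher in replicate 1 (1.85 to 1.93 for counting error).

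Gpc3 (chrX:52272426-52613950, minus strand), encoding glypican-3, had 578 and 510 CPM and ranked 175th. Myc (chr15:61985391-61990374, plus strand) had 70.6 and 78.1 CPM, and Nras (chr3:103058285-103067914, plus strand) had 88.3 and 83.4 CPM. For Myc, Nras and Gpc3 the replicates differed by at most 1.13-fold. On the per-length scale Nras, at 40.3 and 38.6 TPM, was close to its unmodified relative Hras, at 37.9 and 30.2 TPM. Reads from the injected Myc and Nras and from the endogenous genes could not be separated, and whether the transgenes' transcripts were counted at all was not tested. H19 and Igf2 have exons that overlap those of another annotated gene, so their values are uncertain in that respect. In this whole tissue, fewer cells of a type and less RNA per cell cannot be told apart.

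The profile was led by albumin and held by few genes. Alb, the main carrier protein of plasma, had 91592 and 107514 CPM, which was 9.16% and 10.8% of all reads. Ahsg, encoding the plasma mineral-binding protein fetuin-A, followed with 26953 and 26727 CPM. Apoa1, the structural protein of high-density lipoprotein, had 23279 and 20174 CPM, and Apoe, a ligand of lipoprotein receptors, had 15123 and 14716 CPM. The 10 leading genes of each library took 22.0% and 23.1% of its reads, the 100 leading genes 43.1% and 44.0%, and 213 and 194 genes were enough for 50%.

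**Figure D1:**
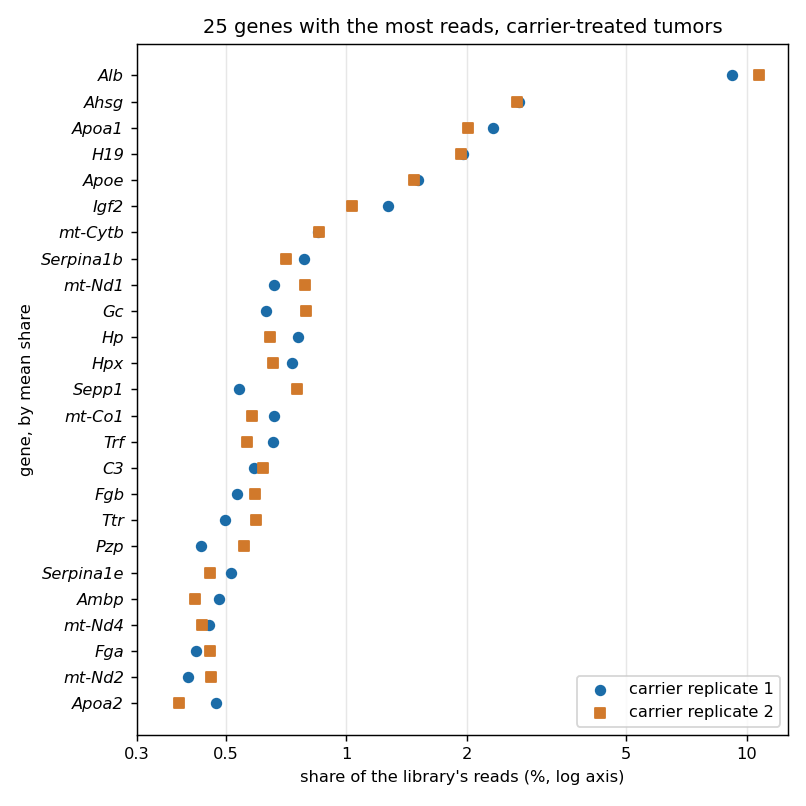
Share of each library's reads (percent, log axis) for the 25 genes with the highest mean, 1 point per carrier library (circles, replicate 1; squares, replicate 2). Alb stood apart at 9.16% and 10.8%, H19 and Igf2 sat among the plasma protein genes, and the remaining genes lay close together.

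Of the 25 genes with the most reads, 17 belonged to a list of 40 plasma proteins that hepatocytes secrete and 5 were encoded by the mitochondrial genome; the others were H19, Igf2 and Sepp1, whose product carries selenium in plasma. The plasma proteins among them included the protease inhibitors Serpina1b and Serpina1e, the heme and hemoglobin scavengers Hpx and Hp, the vitamin D carrier Gc, the iron carrier Trf, complement C3, the thyroxine carrier Ttr and the fibrinogen chains Fga and Fgb. Both libraries agreed on 23 of their 25 leading genes and on 92 of their 100 leading genes.

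Ordering genes per length kept 19 of the 25 leading genes by reads. Alb remained first, with 95134 and 113276 TPM, and the short transcript of Apoa1 moved ahead of Ahsg, with 45815 and 40275 TPM against 29843 and 30018 TPM. Apoa2, a second high-density lipoprotein apolipoprotein with a very short transcript, rose from the 25th place by reads to the 4th, at 21449 and 17608 TPM. H19 stayed near the top at 19315 and 19447 TPM, in the 5th place. Igf2, whose annotated transcript is long, fell to the 28th place, at 5409 and 4461 TPM. Afp, at 3811 and 2044 TPM, fell to the 40th.

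Several of these genes lie in clusters of related genes, and few chromosome segments therefore held a large part of the reads. Alb, Afp, Afm and Gc, the albumin family on chromosome 5, took 10.3% and 11.9% of reads. Afp starts 29.84 kb downstream of Alb on the same strand, and its level was 25-fold and 55.4-fold below that of Alb on the TPM scale. The apolipoprotein genes Apoa1, Apoc3, Apoa4 and Apoa5, within 43.34 kb of chromosome 9, took 2.75% and 2.32%, and Apoe, Apoc1, Apoc4 and Apoc2, within 27.61 kb of chromosome 7, took 2.06% and 2.04%. The 3 fibrinogen chains, within 42.14 kb of chromosome 3, took 1.31% and 1.46%. H19 and Igf2, imprinted neighbors within 91.3 kb of chromosome 7, took 3.23% and 2.97%. The 5 alpha-1-antitrypsin genes of chromosome 12 took 1.97% and 1.71%, but they are close copies of each other and their individual values are uncertain.

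The promoters of the genes for albumin, alpha-fetoprotein, fetuin-A and apolipoprotein A-I are shown. Whether they bear on the different levels of these genes was not tested. Each stretch of 200 bases runs from 150 bases before to 50 bases after the start that RefSeq annotates on GRCm38.p6 and is written 5′ to 3′ on the plus strand, which is the coding strand of these 4 genes. Capitals mark the TATA-box letters TATAAA, the letters GTTAAT and the CCAAT box, searched on both strands. The windows are chr5:90460720-90460919 for Alb, chr5:90490564-90490763 for Afp, chr16:22891865-22892064 for Ahsg and chr9:46228480-46228679 for Apoa1.
Alb: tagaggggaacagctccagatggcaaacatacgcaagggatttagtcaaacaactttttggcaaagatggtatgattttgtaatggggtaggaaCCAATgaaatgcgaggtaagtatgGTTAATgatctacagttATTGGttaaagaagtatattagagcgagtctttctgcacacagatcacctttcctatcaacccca
Afp: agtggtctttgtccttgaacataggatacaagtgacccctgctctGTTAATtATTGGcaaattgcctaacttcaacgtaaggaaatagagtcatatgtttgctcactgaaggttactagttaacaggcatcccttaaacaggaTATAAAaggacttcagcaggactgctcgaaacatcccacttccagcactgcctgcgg
Ahsg: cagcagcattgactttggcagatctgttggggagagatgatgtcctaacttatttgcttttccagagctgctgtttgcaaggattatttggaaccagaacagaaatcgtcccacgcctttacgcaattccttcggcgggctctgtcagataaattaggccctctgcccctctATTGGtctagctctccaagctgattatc
Apoa1: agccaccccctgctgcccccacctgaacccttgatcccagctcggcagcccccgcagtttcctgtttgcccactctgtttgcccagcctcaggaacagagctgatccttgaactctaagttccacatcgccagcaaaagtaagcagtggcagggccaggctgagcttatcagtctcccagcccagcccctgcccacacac

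Alb held 1 match to GTTAAT and 2 to CCAAT, Afp held 1 match to each of the 3 motifs, and Ahsg held 1 match to CCAAT. None of the searched letters was in the Apoa1 window, which says nothing about the factors that act there. Among the 80 RefSeq promoter entries that matched 67 of the 100 leading genes, 28.8% held TATAAA, 21.3% GTTAAT, 36.3% CCAAT and 20.0% the C/EBP letters TTGCNNAA. Among all 32851 entries the shares were 8.91%, 4.41%, 28.6% and 6.78%. The E-box CACGTG, to which MYC can bind with its partner MAX, was in 2.50% of the leading entries and 5.45% of all. These are matches of letters, searched on both strands without regard to overlap between motifs, and not binding sites.

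Protein-coding genes took 96.7% and 96.8% of reads. Long noncoding RNA genes took 2.63% and 2.59%, most of it H19: without it their share was 0.676% and 0.650%. Xist, the RNA that coats the inactive X chromosome, had 1335 and 1343 CPM, while the Y-linked genes Ddx3y, Eif2s3y, Kdm5d and Uty were listed at 0 in both libraries. All genes of chromosome Y together had 102 and 47 reads. Neat1, the scaffold of nuclear paraspeckles, had 784 and 885 CPM, and Malat1, a nuclear RNA of speckles, had 196 and 256 CPM. Meg3 and Rian, noncoding RNAs of the imprinted Dlk1 region on chromosome 12, had 366 and 286 CPM and 279 and 249 CPM. Gas5, the host of several small nucleolar RNAs, had 271 and 246 CPM. Gm42418, a noncoding gene, had 576 and 551 CPM. Like H19, it and Xist, Neat1, Malat1, Meg3, Rian and Gas5 have exons that overlap another annotated gene, so their values are uncertain.

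Genes of the mitochondrial genome that encode respiratory chain subunits took 3.40% and 3.45% of reads. Cytochrome b, mt-Cytb, led them with 8510 and 8556 CPM, and mt-Nd1 of complex I followed with 6614 and 7890 CPM. mt-Co1 of complex IV had 6617 and 5810 CPM. Of the 13 genes, 7 were above 1 CPM; mt-Co2 had at most 0.169 CPM, and mt-Co3, mt-Atp6, mt-Atp8, mt-Nd3 and mt-Nd4l were listed at 0 in both libraries although every respiring cell uses them. The mitochondrial share is therefore a share of part of the mitochondrial transcripts, and the cause of the zeros was not tested. For the same reason a listed 0 elsewhere is a listed value and not a measured absence. Cytosolic ribosomal protein genes, 80 in number, took 2.79% and 2.45% of reads, led by Rplp1 with 1597 and 1271 CPM, while Rpl23a and Rpl24 had at most 1.18 CPM. Of 65 replication-dependent histone genes, whose messages mostly lack a poly(A) tail, 45 were listed at 0. Poly(A) RNA had been captured, but the cause of the histone zeros was not tested either.

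Among the lists of cell types, plasma proteins of the hepatocyte had the largest share of reads. The 40 plasma protein genes took 27.6% and 28.8% of reads (27.5 to 27.6% and 28.7 to 28.8%), and 39 of them reached 1 CPM in both libraries. Their median level was 3441 TPM, beside 10.9 TPM for all 12512 genes at 1 CPM or more in both libraries. A1bg, with 1.18 and 0.755 CPM, was the only member under that limit. The 40 hepatocyte metabolic enzymes all reached 1 CPM in both libraries, took 2.12% and 2.31% of reads and had a median of 311 TPM.

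**Figure D2:**
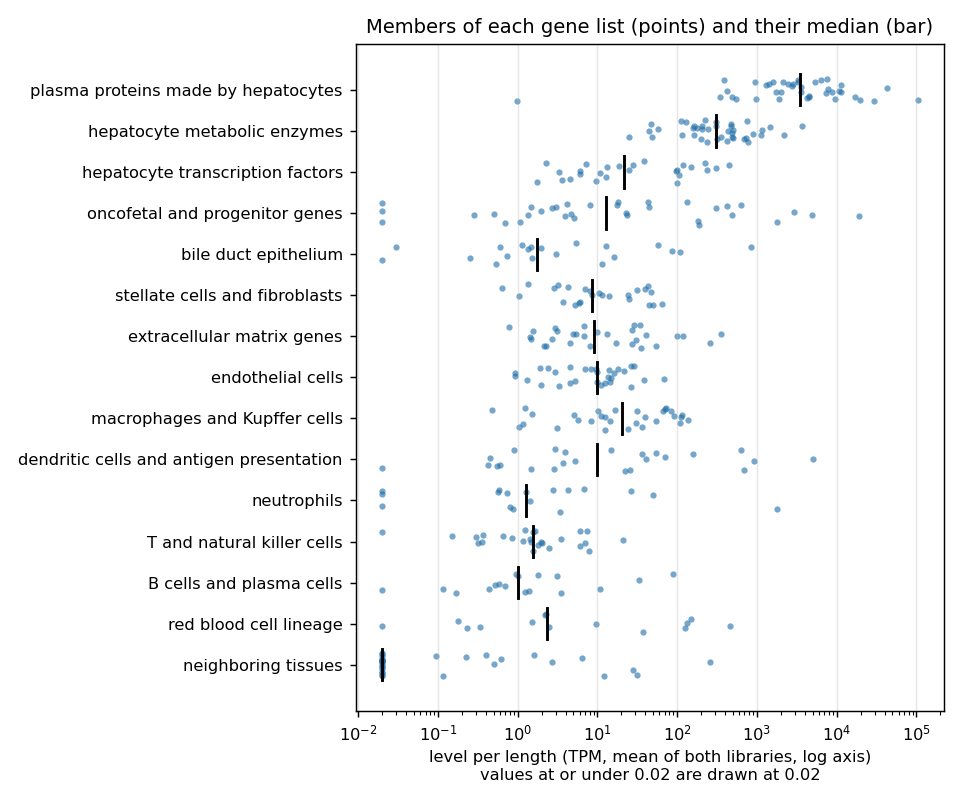
Level per length (TPM, mean of both carrier libraries, log axis) of the members of 15 gene lists, 1 point per gene, with the median of each list as a black bar; values at or under 0.02 TPM are drawn at 0.02. Plasma protein genes had a median of 3441 TPM and hepatocyte enzymes of 311 TPM, while every stromal and immune list had a median of 20.3 TPM or less.

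Adh1, alcohol dehydrogenase, had 2069 and 1981 CPM, and Mat1a, which makes S-adenosylmethionine, had 1258 and 1300 CPM. The drug-metabolizing enzymes Cyp3a11 and Cyp2e1 were both higher in replicate 2, with 1145 and 1897 CPM and with 1002 and 1573 CPM. Cps1, the entry enzyme of the urea cycle, had 1026 and 960 CPM, and Pck1, of gluconeogenesis, had 971 and 1105 CPM. At the low end was Cyp7a1, the rate-limiting enzyme of bile acid synthesis, with 53.4 and 30.6 CPM.

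All 26 hepatocyte transcription factors on the list reached 1 CPM in both libraries, with a median of 21.8 TPM. Hnf4a, a central regulator of hepatocyte identity, led with 642 and 580 CPM. Xbp1, a regulator of secretory capacity, had 516 and 676 CPM, and Cebpa, of hepatocyte differentiation, had 214 and 294 CPM. Nr1h4, the bile acid receptor FXR, had 143 and 135 CPM, and Foxa3, a forkhead factor of liver genes, had 87.3 and 73.0 CPM. Onecut1, known for its part in liver and bile duct development, was among the lowest at 2.70 and 4.90 CPM.

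Genes that mark the zones of the liver lobule were present from both ends. Of 18 pericentral genes found, 17 reached 1 CPM in both libraries, among them Cyp2e1, the glutamine synthetase gene Glul with 551 and 383 CPM, Oat with 201 and 163 CPM and Cyp1a2 with 174 and 151 CPM. All 16 periportal genes did, among them Arg1 of the urea cycle with 740 and 665 CPM, Gls2 with 273 and 258 CPM and Ass1 with 252 and 236 CPM. Lower members of the pericentral list were Axin2, a feedback inhibitor of Wnt signaling, with 1.69 and 1.13 CPM, Lgr5, a receptor that enhances it, with 3.20 and 3.58 CPM, and Notum, a secreted Wnt inhibitor, with 18.4 and 10.8 CPM. The major urinary proteins took 0.223% and 0.301% of reads, led by Mup3 with 1425 and 1961 CPM; these genes are near-identical copies and their values are uncertain.

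For the enzymes and transporters compared, the form typical of adult liver was higher than the form of fetal or other tissues. The pairs were chosen with the values known and are given as a description. Mat1a exceeded Mat2a, the form of proliferating and extrahepatic cells, 12.6-fold and 17.3-fold on the TPM scale. For pyruvate kinase the gap was narrower: Pklr exceeded Pkm 2.80-fold and 5.18-fold. The glucose transporter gene Slc2a2 exceeded Slc2a1 4.90-fold and 8.12-fold.

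**Figure D3:**
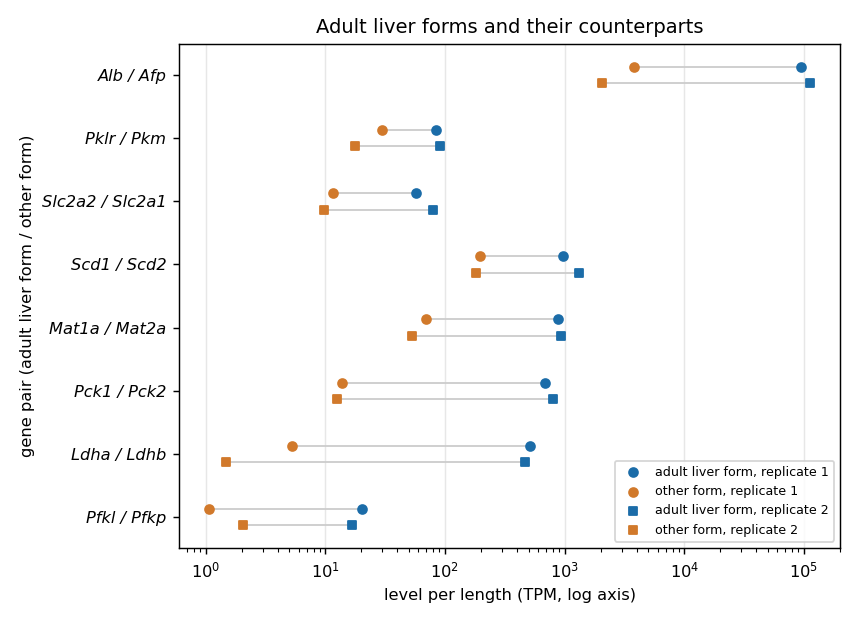
Level per length (TPM, log axis) of the adult liver form (blue) and its counterpart (orange) for 8 gene pairs, joined by a line within each carrier library (circles, replicate 1; squares, replicate 2). The liver form was higher in both libraries in all 8 pairs, from ratios of 2.80 and 5.18 for Pklr over Pkm to 99.2 and 315 for Ldha over Ldhb. Ldha is not specific to liver.

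Scd1, the main stearoyl-CoA desaturase of liver, had 1939 and 2608 CPM, and its relative Scd2 had 443 and 403 CPM, a TPM ratio of 4.89 and 7.22. The gluconeogenic Pck1 exceeded the mitochondrial form Pck2 49.5-fold and 63.8-fold, and Pfkl, the liver phosphofructokinase, exceeded Pfkp 19.1-fold and 8.17-fold. Ldha, the lactate dehydrogenase subunit typical of liver, exceeded Ldhb 99.2-fold and 315-fold, on only 20 and 5 reads of Ldhb. Ldha is not specific to liver and is also on the glycolysis list, so this pair cannot tell adult liver from tumor expression. In all of the 8 pairs plotted except that of phosphofructokinase, the ratio of the liver form to its counterpart was lower in replicate 1.

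Beside this hepatocyte program, 34 oncofetal and progenitor genes took 4.30% and 3.60% of reads, and 29 of them reached 1 CPM in both libraries. H19, Igf2 and Afp made up most of that share; without them it was 0.547% and 0.346%. The median over all 34 members was 12.98 TPM, close to the 10.9 TPM of the 12512 genes at 1 CPM or more in both libraries. The high share of the list therefore came from its leading members. After the named markers, Lcn2, a secreted iron-siderophore binder, had 2774 and 1123 CPM. Lcn2, also on the neutrophil list, alone took 0.277% and 0.112% of reads, a large part of the remaining share. Akr1c18, an aldo-keto reductase, had 324 and 299 CPM. Tspan8, a tetraspanin, had 184 and 247 CPM, and Ly6d had 176 and 78.9 CPM. Prom1, a surface marker used for progenitor cells, had 51.2 and 53.0 CPM.

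Dlk1, an imprinted gene of hepatoblasts, had 58.1 and 27.0 CPM. Igf2bp3, an oncofetal RNA-binding protein, had 4.55 and 5.09 CPM, and Hmga2, a fetal chromatin protein, had 1.35 and 2.45 CPM. Lin28a, Lin28b and Igf2bp1, RNA-binding proteins of embryonic and fetal cells, were listed at 0 in both libraries. High H19 and Igf2 did not extend to the imprinted list as a whole: of 24 imprinted genes found, 19 reached 1 CPM in both libraries, with a median of 7.38 CPM and a median of 4.72 TPM.

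Nearly all listed genes of the networks of the injected oncogenes were detected. Of all 21303 protein-coding genes, 11824 reached 1 CPM in both libraries. Of 13 genes of the MYC, MAX and MXD network, 12 reached 1 CPM in both libraries; Mlxipl, the carbohydrate-responsive factor ChREBP, led with 662 and 548 CPM. Max, the obligate partner of MYC, had 47.2 and 41.1 CPM, and Mxd4, a competitor of MYC for MAX, had 107 and 87.2 CPM. Mycn, a relative of Myc, had 4.05 and 0.566 CPM. All 21 genes of the RAS family and its effectors reached 1 CPM in both libraries. Map2k2 had 157 and 128 CPM and Braf had 17.4 and 20.9 CPM. The median was 7.48 TPM for the MYC, MAX and MXD list and 18.1 TPM for the RAS list. For all 12512 genes at 1 CPM or more in both libraries it was 10.9 TPM.

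Of 22 genes that report ERK signaling, 21 reached 1 CPM in both libraries. Junb had 112 and 119 CPM, Egr1 81.4 and 141 CPM, and Dusp6, an ERK phosphatase, 50.4 and 108 CPM. Of 38 cell cycle genes, 37 reached 1 CPM in both libraries, with a median of 11.3 TPM. Cdk4, the kinase of D-type cyclins, had 129 and 112 CPM, Mki67, a marker of cycling cells, had 67.1 and 82.6 CPM, and Top2a, a topoisomerase of dividing cells, had 28.5 and 20.4 CPM. The cell cycle inhibitors Cdkn1a and Cdkn2a had 122 and 95.6 CPM and 43.5 and 23.4 CPM.

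Other metabolic and stress groups were led by a few genes each. All 26 lipid synthesis genes reached 1 CPM in both libraries, and Fasn, fatty acid synthase, had 769 and 674 CPM. Of 26 glycolysis genes, 25 did; the lactate dehydrogenase gene Ldha had 705 and 627 CPM. Chaperones of the endoplasmic reticulum led the stress list: Hspa5 had 1181 and 1308 CPM and Calr had 1061 and 950 CPM, whereas Hspa1a, an inducible cytosolic chaperone, had 0.169 and 0.755 CPM. Translation factors took 0.983% and 0.886% of reads, with Eef1a1, the elongation factor that delivers aminoacyl-tRNA, at 2520 and 2124 CPM.

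Stromal transcripts were present at low levels. The 55 stellate, fibroblast and matrix genes all reached 1 CPM in both libraries and took 0.433% and 0.470% of reads. Fn1, encoding fibronectin, with 1693 and 1678 CPM, and Col18a1, encoding the precursor of endostatin, with 713 and 756 CPM, made up more than any other members; hepatocytes also make both, and without them the share was 0.192% and 0.227%. Dcn, a proteoglycan of fibroblasts, had 84.8 and 105 CPM, and the fibrillar collagens Col3a1 and Col1a1 had 99.8 and 173 CPM and 57.3 and 88.3 CPM. Pdgfrb, a growth factor receptor of mesenchymal cells, had 19.2 and 16.8 CPM, and Lrat, which stores vitamin A in quiescent stellate cells, had 6.57 and 6.04 CPM. Acta2, the smooth muscle actin of myofibroblasts, had 22.6 and 66.4 CPM.

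Endothelial genes took 0.0725% and 0.0786% of reads, and 27 of 30 reached 1 CPM in both libraries. The scavenger receptor genes Stab1 and Stab2, typical of liver sinusoids, had 128 and 97.0 CPM and 48.5 and 58.5 CPM. Clec4g, a sinusoidal lectin, had 25.8 and 27.5 CPM. Pecam1 and Cdh5, pan-endothelial adhesion molecules, had 23.6 and 26.8 CPM and 35.4 and 38.5 CPM. Plvap, a protein of fenestral diaphragms, had 57.0 and 53.8 CPM. The median over all 30 members was 9.94 TPM, near the 10.9 TPM of the 12512 genes at 1 CPM or more in both libraries.

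Among the immune lists, that of macrophages had the largest part of its members detected. Of 30 macrophage and Kupffer cell genes, 29 reached 1 CPM in both libraries, with a median of 20.3 TPM and a share of 0.0964% and 0.102% of reads. Without Slc40a1, Nr1h3 and Hmox1, which hepatocytes also express, the median was 14.4 TPM and the share 0.0758% and 0.0778%. Clec4f, a lectin specific to Kupffer cells in mice, had 81.1 and 89.8 CPM, and Cd5l, a secreted macrophage protein, had 80.1 and 106 CPM. The complement gene C1qa had 57.6 and 59.0 CPM, and its partner C1qc had 51.7 and 53.8 CPM. Adgre1, the F4/80 antigen, had 5.73 and 7.73 CPM. Vsig4 had 15.2 and 28.9 CPM, and Mrc1, the mannose receptor, had 22.4 and 41.5 CPM, so that both were higher in replicate 2.

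Apart from Sdc1 and Lcn2, lymphocyte and neutrophil genes were low. Zap70, with 8.43 and 10.9 CPM, Ccl5, with 9.27 and 6.98 CPM, and Thy1, with 7.25 and 7.36 CPM, led the T and natural killer cell genes. The T and natural killer cell list took 0.00615% and 0.00536% of reads. Of its 26 genes, 14 reached 1 CPM in both libraries, beside 11824 of all 21303 protein-coding genes. Cd3e had 2.36 and 2.83 CPM, Cd8a 3.03 and 2.26 CPM and Nkg7 3.20 and 2.26 CPM. Foxp3, of regulatory T cells, was listed at 0. In the B and plasma cell list, Sdc1, which hepatocytes also make, had 140 and 140 CPM, and without it the share was 0.00314% and 0.00266%. Ms4a1 had 0.674 and 0.189 CPM, the immunoglobulin gene Ighm had 9.27 and 7.17 CPM, and Pax5 was listed at 0. Lcn2 made up nearly all of the neutrophil list's 0.281% and 0.116%; without it the share was 0.00367% and 0.00351%. S100a8 and S100a9, the abundant calcium-binding proteins of neutrophils, had 7.42 and 7.73 CPM and 11.0 and 9.998 CPM, and Ly6g was listed at 0.

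Antigen presentation was led by genes that most cells express. B2m, the light chain of class I molecules, had 1840 and 1736 CPM, and the heavy chain genes H2-K1 and H2-D1 had 1160 and 1031 CPM and 704 and 634 CPM. H2-Aa, a class II gene of professional antigen-presenting cells, had 60.8 and 51.3 CPM. Over all 114 immune cell genes the share was 0.858% and 0.654% of reads, and without the 13 genes that hepatocytes also express it was 0.121% and 0.114%.

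Of 20 bile duct genes, 11 reached 1 CPM in both libraries, beside 11824 of all 21303 protein-coding genes. The list took 0.0941% and 0.122% of reads. Spp1, encoding osteopontin, with 467 and 657 CPM, Anxa4 with 196 and 213 CPM and Cdh1, encoding E-cadherin, with 136 and 184 CPM led it. Without these 3 genes the share was 0.0142% and 0.0168%. The defining keratin genes Krt19 and Krt7 had 2.36 and 5.66 CPM and 0.843 and 2.26 CPM, Sox9 had 1.52 and 5.09 CPM, and Epcam had 0.337 and 2.08 CPM. All 4 were higher in replicate 2, on 2 to 14 reads in replicate 1, and for Krt7 the ratio's interval of 0.88 to 9.73 included equal levels. Sctr, the secretin receptor gene, was listed at 0.

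Other tissues left little trace. Of 31 genes of pancreas, intestine, fat, muscle and further tissues, 18 were listed at 0 in both libraries, among them the pancreatic genes Pnlip, Cpa1, Ctrb1 and Ins1, the fat gene Adipoq and the muscle gene Ckm. Fabp2, an intestinal fatty acid-binding protein, was the highest with 103 and 101 CPM, and Cela1, an elastase, had 31.2 and 27.4 CPM. Red blood cell genes took 0.0410% and 0.0353% of reads, with Hbb-bs, an adult beta-globin, at 154 and 132 CPM, and the embryonic globin gene Hbb-y listed at 0. Of 10 platelet and mast cell genes, 3 reached 1 CPM in both libraries, with 0.00158% and 0.00151% of reads.

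The 2 libraries agreed closely over the whole transcriptome. Across the 12512 genes at 1 CPM or more in both, Pearson's r of log2(CPM + 1) was 0.978 and Spearman's rho was 0.976; these are across genes, which are not independent replicates. Among 8520 genes with a mean of at least 10 CPM, the median difference in either direction was 0.22 on the log2 scale. Differences still exceeded counting error: the chi-square of the read counts was 9.09 per degree of freedom. For genes at 100 to 1000 CPM the log2 ratio had an SD of 0.29, where counting error alone gives 0.07. At 1 to 3 CPM the SD was 1.06 against 0.73, and 29.4% of genes were at least 2-fold apart.

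**Figure D4:**
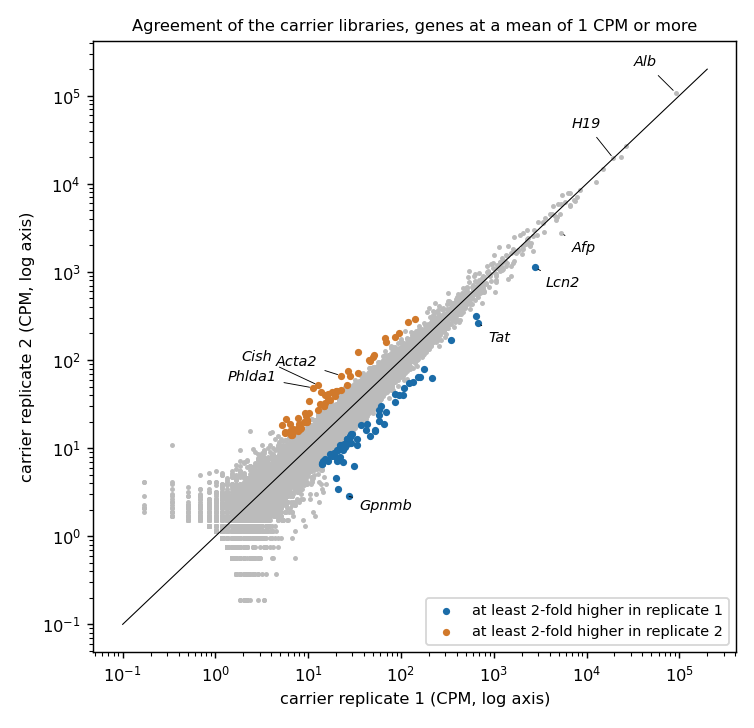
CPM of each gene in carrier replicate 1 (horizontal) and replicate 2 (vertical), both on log axes, for genes with a mean of at least 1 CPM that were read in both libraries; the line marks equal values. Blue and orange points are the 73 and 57 genes with a mean of at least 10 CPM that were at least 2-fold higher in replicate 1 or replicate 2; Lcn2 was the most abundant of them.

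At least 2-fold higher in replicate 1 were 73 genes, 0.857% of the 8520, and 57 genes, 0.669%, were at least 2-fold higher in replicate 2, together 130 or 1.53%. Scaling by TMM factors of 1.02 and 0.982 turned that split to 58 and 70, and scaling by the median ratio gave 66 and 65; so neither library can be said to hold more of the higher genes. Each such gene has 1 library on either side, and the intervals below hold counting error only.

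Gpnmb, a glycoprotein of lipid-laden macrophages and melanocytes, stood farthest apart, with 27.6 and 2.83 CPM, 9.77-fold higher in replicate 1 (5.75 to 17.9). Trem2, a lipid receptor of macrophages, had 3.88 and 1.13 CPM, but the general macrophage list did not differ in that way: at 10 CPM or more, 9 of its genes were higher in replicate 1 and 11 in replicate 2. Plin4, a coat protein of lipid droplets, had 21.1 and 3.40 CPM, and Phf11c had 31.2 and 6.23 CPM. The transcription factor gene Cux2 had 19.7 and 4.53 CPM, Arrdc2 had 66.2 and 18.7 CPM, and Spata2l had 46.5 and 13.6 CPM. Hamp2, a relative of the iron hormone hepcidin, had 23.6 and 6.98 CPM, and the pseudogene Serpina4-ps1 had 214 and 61.9 CPM. Plin4, Spata2l and Hamp2 have exons that overlap another gene, so their values are uncertain.

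Further down in the same direction were some genes that glucocorticoids are known to induce. They were chosen after their values were seen, from the genes higher in replicate 1. Glucocorticoid targets were not counted as a set, so these genes do not show how such targets differed between the libraries. Tat, of tyrosine breakdown, had 672 and 265 CPM, Sds, of serine breakdown, 159 and 64.3 CPM, Fkbp5, a receptor co-chaperone, 152 and 64.0 CPM, Tsc22d3 104 and 39.99 CPM, and Sgk1 68.6 and 25.7 CPM. Lcn2, at 2.47-fold (2.40 to 2.54), was the only gene with a mean of at least 1000 CPM that was 2-fold apart. The acute phase and interferon list took 0.861% and 0.522% of reads; of its 26 genes at 10 CPM or more, 21 were higher in replicate 1, beside 4677 of all 8520 genes, and the median log2 ratio was 0.44 beside 0.04. Serpina3n had 1419 and 825 CPM, the metallothionein genes Mt1 and Mt2 had 1040 and 598 CPM and 749 and 440 CPM, and Hamp, encoding hepcidin, had 169 and 109 CPM. Orm1, another acute phase gene, had 644 and 607 CPM. The list did not hold every acute phase gene, so it does not speak for all of them. Outside it, Fgb had 5346 and 5905 CPM and C3 had 5899 and 6190 CPM, both higher in replicate 2. Hp, also outside it, had 7558 and 6451 CPM.

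In the other direction, Phlda1 had 11.3 and 48.3 CPM, 4.28-fold higher in replicate 2 (3.26 to 5.68). Cish and Socs2, feedback inhibitors of cytokine and growth hormone signaling, had 12.8 and 51.7 CPM and 27.0 and 75.8 CPM. Arrdc3 had 34.7 and 122 CPM, the stress-induced factor Atf3 had 10.3 and 34.0 CPM, the matricellular gene Cyr61 had 5.23 and 18.3 CPM, and Etnppl, an enzyme of phosphoethanolamine breakdown, had 13.7 and 43.6 CPM. Gm16559, an antisense gene, had 5.73 and 21.1 CPM. Its exons and those of Phlda1 and Cish overlap another gene, so their values are uncertain.

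Jun, a subunit of the AP-1 factor, had 28.3 and 66.0 CPM, and the nuclear receptor gene Nr4a1 had 7.92 and 18.9 CPM. Of the 14 ERK output genes at 10 CPM or more, 12 were higher in replicate 2 and 3 by at least 2-fold, with a median log2 ratio of -0.53. Over all 8520 genes at that level, 4677 were higher in replicate 1 and 3843 in replicate 2, the counts beside which this list and those that follow are given. Junb, at 112 and 119 CPM, and Myc were nearly level, and Fosl1, below 10 CPM, had 3.54 and 1.13 CPM. The contractile genes Acta2, Myl9 and Myh11 had 22.6 and 66.4 CPM, 7.75 and 21.9 CPM, and 10.3 and 25.1 CPM; Tagln had 26.1 and 49.2 CPM. Of the 15 stellate and fibroblast genes at 10 CPM or more, 11 were higher in replicate 2, with a median log2 ratio of -0.36, beside 3843 of all 8520 genes.

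Of 30 cell cycle genes, 25 were higher in replicate 1, beside 4677 of all 8520 genes, with a median log2 ratio of 0.35 beside 0.04; none was 2-fold apart, and Mki67 was higher in replicate 2. Of 75 cytosolic ribosomal protein genes, 61 were higher in replicate 1, with a median of 0.17. Plasma protein genes were balanced, 20 higher in replicate 1 and 19 in replicate 2, with a median of 0.01. The signs of the ERK output, stellate, acute phase, cell cycle and ribosomal medians were the same under TMM and median-ratio scaling. That of the plasma protein list was not, at -0.04 and -0.02. Among the fetal genes, Afp and Dlk1 were 1.89-fold and 2.16-fold higher in replicate 1, while H19 was level.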

How the data were processed

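Messenger RNA was measured in 2 libraries of carrier-treated tumors. Per the labels' protocols, the stranded TruSeq libraries were made by poly(A) capture from 100 ng of RNA and read single-end in 75 cycles. Per the submitters' processing notes, GRCm38 was the build, and the tools were STAR 2.6.1c, edgeR 3.22.5 and Subread 1.6.3. What each did, and how strand and multiply matching reads were handled, is not given in the sources used here, so overlapping, antisense and near-identical genes are uncertain. This holds also for overlapping genes that are not marked as such where they are named above. The authors deposited CPM values per gene, although the header calls them reads. All values above 0 were whole multiples of 1 step within 0.01 (100%), which gave whole reads and totals of 5932939 and 5300806.

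From these, shares of reads with Wilson 95% intervals, TPM from merged exons of GENCODE M21 (1486 of 39179 identifiers were not in it, with 0.203% and 0.188% of reads) and ratios between the libraries with exact conditional binomial intervals were computed in Python 3.11.15. The normalization factors came from edgeR 4.0.16. Where 1 symbol had several identifiers the one with the highest mean was used. Simulated data with known answers were used to test the scripts. With 1 condition no test between groups was possible. The recovered reads of both libraries were compared by a chi-square statistic across genes, given with no p-value. The members and the 33 gene lists (722 symbols, 11 not found) were chosen with earlier results of these data known. The rule for named genes took the 25 leading genes by CPM and by TPM, the 6 markers, up to 6 leading members of each list, markers at 0, the 8 genes farthest apart in each direction, the 8 leading noncoding genes, and other list members where a list is discussed. Alternatives were the per-length scale, left-out libraries, mitochondrial or overlapping genes, filters, pseudocounts and scalings. Some genes are not reported here.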

Additional observations from a re-analysis of the deposited data

How the results depend on the processing

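The results are shares, counts and a correlation, which have no direction to reverse. Of 54 alternatives tried, 18 moved a value. The rule was a move beyond the spread of the libraries for shares, beyond 1.5-fold for counts of genes, and a change of the rounded r for the correlation. The 54 include settings with 1 library at a time, in which a share could not move. On the per-length scale in place of reads, the 10 leading genes took 29.3% rather than 22.6%, 52 rather than 205 genes made up 50%, protein-coding genes took 95.4%, plasma proteins 35.1%, oncofetal genes 3.16%, stellate, fibroblast and matrix genes 0.166%, endothelial genes 0.0400% and immune genes 1.11%. Without genes that overlap another, the 10 leading genes took 27.7% and 119 genes made up 50%. Without mitochondrial genes in the total, plasma proteins took 29.2%. Without H19, Igf2 and Afp the oncofetal share was 0.447%, without Fn1 and Col18a1 the stromal share was 0.209%, and without 13 genes that hepatocytes also express the immune share was 0.117%; these settings and the 1.5-fold limit were chosen after seeing the data. With all genes that had a read, r was 0.985. The 130 genes 2-fold apart became 979 at a mean of at least 1 CPM, 28 at 50 CPM, and 798 at 1.5-fold.

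With 1 library at a time, a share cannot move beyond the spread of the libraries, so the ranges that follow say nothing about stability. The shares ranged from 22.0% to 23.1% for the 10 leading genes, 96.7% to 96.8% for protein-coding genes, 27.6% to 28.8% for plasma proteins, 2.12% to 2.31% for enzymes, 3.60% to 4.30% for oncofetal genes, 0.433% to 0.470% for stromal genes, 0.0725% to 0.0786% for endothelial genes and 0.654% to 0.858% for immune genes. From 194 to 213 genes made up 50%, and 12961 to 13270 reached 1 CPM. Leaving out a library gave no value for the correlation and the count of genes 2-fold apart, which need both. No paired analysis was possible because there was 1 condition and no test. Depth limits genes under about 3 CPM.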
